A study of Homo sapiens with 12 samples.

Results

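A549, a line from a human lung adenocarcinoma, was split by flow cytometry into cells with little and cells with much surface BTLA, and RNA-Seq of these sorted subpopulations is described here across all genes. The members are the 6 libraries labelled as sorted cells, 3 of the low BTLA subpopulation (BTLA low 1, 2 and 3) and 3 of the high BTLA subpopulation (BTLA high 1, 2 and 3), of 12 libraries in all. The other 6 hold A549 cells given an shRNA against BTLA (shBTLA, 3 libraries) or a control (shControl, 3 libraries), by plasmid per the labels and by lentivirus per the methods, and are used to find what moved in the sort alone. All cells were grown in medium with serum, the sorted cells carried no construct, and BTLA was stained with a directly labelled antibody. The gate was on protein at the surface of 1 cell line, the sources do not say whether RNA was taken at the sort or after the culture that followed it, and separate sorts for the 3 libraries of a group are not stated. The p-values therefore reflect only how far these libraries spread, and that spread may be technical.

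BTLA is an inhibitory receptor of the immunoglobulin superfamily, known from lymphocytes, where tyrosines in its tail recruit the phosphatases encoded by PTPN6 and PTPN11. Its ligand is HVEM, a TNF receptor superfamily member encoded by TNFRSF14, which also binds LIGHT and lymphotoxin. In lymphocytes the receptor dampens ERK, PI3K and NF-κB signaling, and the sort asks which genes differ between tumor cells with little and with much of it.

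BTLA message was close to the limit of detection, so the labels could not be checked on it. The gene, on chromosome 3 of GRCh38 from 112463966 to 112499472, had 0 reads in every library but BTLA high 3, with 2 reads (two-sided exact permutation test, p = 1). A count of 0 allows 3 reads, or 0.0706 to 0.102 RPM (reads scaled by the library total), by counting error only. For TNFRSF14, the BTLA low libraries held 4, 12 and 5 reads and the BTLA high libraries 0 each (two-sided exact permutation test, p = 0.1, below which 3 against 3 cannot go). Of 4 phosphatase and adaptor genes tested, 2 were higher in BTLA low at an adjusted p under 0.05 and 2 did not pass. Of the phosphatases, PTPN6 was at 42.4, 39.3 and 40.3 RPM in the BTLA low libraries and 20.9, 21.8 and 23.9 RPM in the BTLA high libraries. The groups did not overlap, and its log2 difference, BTLA low minus BTLA high on the log2(RPM + 0.1) scale, was 0.87 (standard error 0.10, adjusted p = 3.68e-04). A549 cells are known for aldo-keto reductases, aldehyde dehydrogenases and simple keratins, and 16 such genes summed to 50508 to 54159 RPM in BTLA low and 38526 to 41682 RPM in BTLA high. Markers of other cell types were near 0. The 18 lymphocyte markers summed to 1.47 to 1.91 RPM in BTLA low and 1.20 to 2.38 in BTLA high, with 9 at 0 in all 6 libraries, among them PTPRC, CD3E and MS4A1. The 17 myeloid markers summed to 4.15 to 4.73 and 5.91 to 6.05 RPM with 8 at 0, and the 15 fibroblast and endothelial markers to 3.51 to 5.69 and 4.50 to 6.22 RPM with 2 at 0.

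The 6 libraries held 29383169 to 42488067 reads assigned to genes. The deposited RPKM carry the length of another gene, so whole reads were recovered from them, each gene was compared only between libraries as RPM, and levels of different genes are not compared. Adjusted p is from limma over the 16911 genes that reached 10 reads in 3 libraries or more. The first principal component, with 58.7% of the variance, separated the groups. The second, with 18.4%, set BTLA low 2 and BTLA high 3 at one end, and these had the lowest shares of ribosomal protein reads of their groups, 6.59% and 8.22%, against 8.17% to 10.8% in the other 4. They also had the highest mitochondrially encoded shares of their groups, 7.24% and 5.79%.

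At an adjusted p under 0.05, 3238 genes (19.1%) were higher and 1057 (6.25%) lower in BTLA low cells, and 4868 and 1689 at an unadjusted p under 0.05. Without BTLA low 2 the counts were 2293 and 822, and without BTLA high 3 they were 4599 and 1392. Leaving out BTLA low 3 gave 1659 and 510, and leaving out BTLA high 1 gave 1568 and 416. At the thresholds of the study's methods, with p before adjustment no higher than 0.05 and a log2 difference of 1 or more in size, 1188 genes (7.03%) were higher and 222 (1.31%) lower. In 30.4% of the genes every BTLA low library lay above every BTLA high library, and in 11.4% below. The balance of these calls rested on the scaling, because the median gene was 0.18 higher in BTLA low at RPM, and the shift fell with the level, from 0.35 in the third of 10 bins of genes by level to -0.07 in the highest. Scaling all libraries to the same median put the median gene at -0.08 and turned the calls to 1580 higher and 3090 lower, while cyclic loess scaling gave 1961 and 1778. No gene called at RPM was called in the opposite direction under another scaling (0 of the 3238 and 0 of the 1057). Calls of the other scalings were not set against each other. Under each of the 3 scalings 1417 genes (8.38%) were higher and 941 (5.56%) lower, of which 764 and 187 differed by at least 1 on the log2 scale. In what follows "rose" and "fell" are used of genes that passed under each of the 3 scalings, and genes that passed at RPM alone are said to do so. Scaling to the same median lowers every log2 difference from that at RPM, so this filter is less strict for falls than for rises. It kept 941 of the 1057 genes lower at RPM and 1417 of the 3238 higher. The log2 differences given are those at RPM. The members of each group named were chosen with earlier results of these data known, and counts of a group are to be read against these percentages. The share that fell depended on the level, with 15 of 1692 genes in bin 1, the lowest, 185 of 1691 in bin 9 and 228 of 1691 in bin 10. Groups were not matched to all genes by level.

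**Figure D1:**
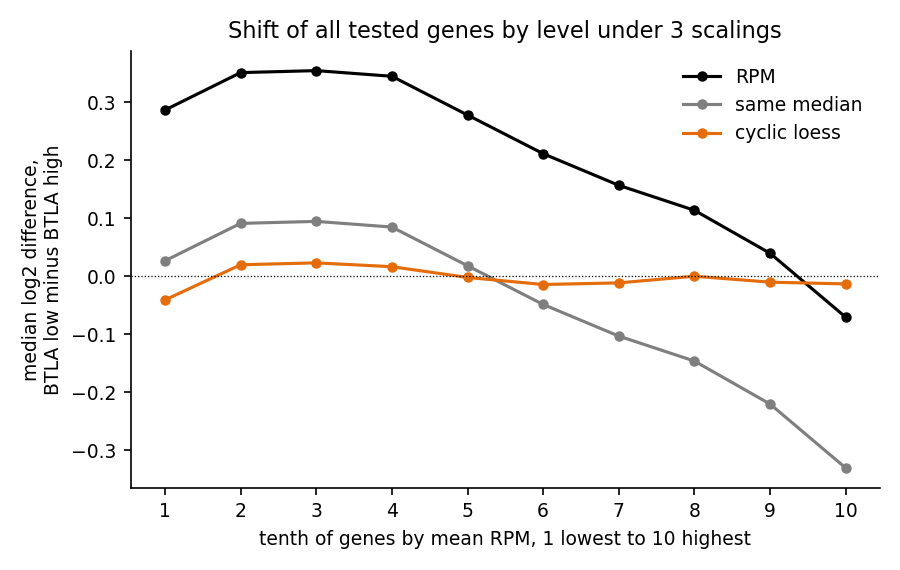
Median log2 difference (BTLA low minus BTLA high, y axis) of all 16911 tested genes in 10 bins by mean RPM (x axis, 1 the lowest), with 1 line for each scaling of the libraries. At RPM the line falls from 0.35 in the third bin to -0.07 in the highest, and with cyclic loess it stays near 0.

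Mucin and surface genes were higher in BTLA low cells. MUC5B, a gel-forming mucin of the airway on chromosome 11 of GRCh38 from 1223066 to 1262172, was at 388, 358 and 359 RPM in BTLA low 1, 2 and 3 and at 40.4, 51.8 and 49.9 RPM in BTLA high 1, 2 and 3. Every BTLA low library was above every BTLA high one, and the log2 difference was 2.97 (standard error 0.10, adjusted p = 2.58e-06). MUC5AC, the other gel-forming airway mucin, was at 169, 165 and 161 RPM in the BTLA low libraries and 44.8, 45.4 and 45.3 RPM in the BTLA high libraries. AGR2, an endoplasmic reticulum protein needed to fold mucins, was at 514 ± 39.3 against 113 ± 12.4 RPM (mean ± SD, n = 3 in each group, BTLA low given first throughout), and SPDEF, a transcription factor of goblet cells, at 70.6 ± 1.44 against 22.8 ± 2.00 RPM. CEACAM6, an adhesion molecule of the carcinoembryonic antigen family, was at 263, 313 and 259.7 RPM in the BTLA low libraries and 33.2, 36.1 and 41.4 RPM in the BTLA high libraries, with a log2 difference of 2.91 (standard error 0.11, adjusted p = 2.69e-06). LCN2, an iron-binding defence protein, had 22.1, 20.4 and 24.3 RPM in the BTLA low libraries and 2.78, 3.67 and 2.72 RPM in the BTLA high libraries. The groups did not overlap for any of these 6 genes. Of 16 genes of gel-forming and membrane mucins and their makers tested, 12 rose, 1 fell and 1 more was higher at RPM alone, with a median of 1.97 against 0.18 over all genes. The one that fell was CREB3L1, a transcription factor of the secretory pathway, a call lost without BTLA high 1, and MUC1 was the one called at RPM alone (log2 difference 0.69, adjusted p = 0.0218), though not without BTLA low 1, BTLA low 3 or BTLA high 1. Of 13 epithelial keratins tested, 4 rose and 3 fell, or 6 and 4 at RPM. KRT4, a keratin of stratified epithelium, rose by 2.25 and KRT20, a keratin of intestinal epithelium, by 3.11, while KRT16, a keratin of activated epidermis, fell by 1.60. CEACAM1 and CEACAM5 rose by 3.20 and 3.25. Members of these families have close paralogs, and the sources used here do not say how reads shared between them were counted.

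Genes of plasma proteins made by the liver were higher in BTLA low cells. The 3 fibrinogen chain genes, which lie side by side on chromosome 4, were all among them. FGB was at 20.8, 20.3 and 17.3 RPM in BTLA low 1, 2 and 3 and at 1.45, 2.28 and 1.96 RPM in BTLA high 1, 2 and 3, a log2 difference of 3.31 (standard error 0.18, adjusted p = 1.62e-05). FGA and FGG, named after their values were seen, were at 15.9 ± 2.05 against 1.77 ± 0.883 RPM and 6.21 ± 0.809 against 0.487 ± 0.326 RPM. APOH, a phospholipid-binding plasma glycoprotein, had 93.7, 85.3 and 89.0 RPM in the BTLA low libraries and 18.0, 21.0 and 18.7 RPM in the BTLA high libraries, and the copper carrier CP, which overlaps HPS3, had 8.98 ± 1.22 against 0.816 ± 0.278 RPM. In none of these did a BTLA high library reach a BTLA low one. Of 28 plasma protein and coagulation genes tested, 13 rose, 5 more were higher at RPM alone and 0 fell at an adjusted p under 0.05, with a median of 1.01. TFPI, the inhibitor of the tissue factor pathway, rose by 1.32, and F7, a protease it restrains, by 2.19. FGL1, a fibrinogen-like protein of the liver, rose by 2.96. Of 18 complement genes, 10 rose and 1 fell, CD59, an inhibitor of the membrane attack complex (-0.29), whose call was lost when any library but BTLA high 3 was left out. C5, the precursor of the anaphylatoxin and of the attack complex, rose by 1.58, and C4BPA, a chain of the C4b-binding protein, by 2.73.

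The promoters of the fibrinogen genes are shown because these neighbours moved together and the liver factors HNF1 and C/EBP are known to act on FGA and FGB. The windows hold the 250 bases before a RefSeq start (GRCh38.p14), for FGA chr4:154590743-154590992 on the minus strand, for FGB, at the first of 2 starts, chr4:154562730-154562979 on the plus strand, and for FGG chr4:154612657-154612906 on the minus strand. Capitals mark the HNF1 half-site GTTAAT and the C/EBP motif TTGCNNAA, searched on both strands.
FGA: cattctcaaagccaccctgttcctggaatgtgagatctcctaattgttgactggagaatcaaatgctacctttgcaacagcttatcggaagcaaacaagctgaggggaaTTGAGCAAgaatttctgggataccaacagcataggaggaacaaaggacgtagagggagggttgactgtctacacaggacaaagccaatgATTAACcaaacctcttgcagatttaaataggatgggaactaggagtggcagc
FGB: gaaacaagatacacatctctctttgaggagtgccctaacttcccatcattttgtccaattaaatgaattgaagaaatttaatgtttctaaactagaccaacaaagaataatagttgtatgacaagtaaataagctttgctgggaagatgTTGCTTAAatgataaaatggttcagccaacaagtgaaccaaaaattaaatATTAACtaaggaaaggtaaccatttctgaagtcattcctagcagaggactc
FGG: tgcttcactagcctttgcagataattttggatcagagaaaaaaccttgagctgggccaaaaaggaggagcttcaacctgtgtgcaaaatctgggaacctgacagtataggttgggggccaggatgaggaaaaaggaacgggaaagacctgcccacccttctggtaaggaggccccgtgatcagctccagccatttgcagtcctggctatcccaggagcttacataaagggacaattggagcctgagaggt
The half-site lies 52 to 47 bases before the start of FGA and 51 to 46 before that of FGB, and FGG holds neither motif in this window. GTTAAT was in 6.23% of all 35116 windows of this length and TTGCNNAA in 9.05%. By gene, with any of its starts counted, GTTAAT was in 9.90% of 1000 genes that rose, 4.11% of 681 that fell and 5.38% of all 11200 tested genes with a window. The shares of TTGCNNAA were 11.1%, 8.52% and 8.78%. These are descriptions of letters in a window, and no test was made of them.

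Genes of epithelial contact and endoderm transcription factors were higher as well. CDH1, the cadherin of epithelial adherens junctions, was at 57.4, 69.8 and 64.3 RPM in BTLA low 1, 2 and 3 and at 16.6, 20.5 and 24.2 RPM in BTLA high 1, 2 and 3, a log2 difference of 1.65 (standard error 0.14, adjusted p = 1.19e-04). JUP, the junction plaque protein plakoglobin, was at 408 ± 9.75 against 248 ± 20.0 RPM, and TJP3, a tight junction scaffold that overlaps APBA3, rose by 1.91. EHF, an ETS factor of epithelia, rose by 1.51, and EPCAM, named after its values were seen, by 1.32. Of 31 adhesion and tight junction genes tested, 13 rose, 5 more were higher at RPM alone and 1 fell, CLDN4 (-0.55, a call lost without BTLA low 3), with a median of 0.69. Without BTLA high 1, 10 in place of 18 were higher at RPM. Of 19 endoderm transcription factors, 7 rose, 2 more were higher at RPM alone and 0 fell. The pioneer factor FOXA1 was at 10.9, 14.8 and 14.1 RPM in the BTLA low libraries and 3.01, 3.27 and 5.37 RPM in the BTLA high libraries, and FOXA2 at 104, 111 and 102 RPM in the BTLA low libraries and 69.6, 62.3 and 74.4 RPM in the BTLA high libraries. FOXA3 and NR5A2 rose by 1.66 and 1.23. NKX2-1, the lineage factor of lung and thyroid, was low but rose, from 0.514 RPM in BTLA high to 2.45 in BTLA low. WNT pathway genes were higher in 11 of 39 under each scaling and lower in 1, WNT10B (-0.64), a call lost without BTLA low 2, BTLA low 3 or BTLA high 2. LGR6, a receptor for R-spondins, was at 22.8 ± 0.976 against 3.03 ± 1.07 RPM, DKK1, a secreted WNT inhibitor, at 89.0 ± 9.61 against 20.7 ± 5.39 RPM, and NKD1 and RNF43, both inhibitors that WNT signaling induces, rose by 1.98 and 1.38. AXIN2, another such target, rose by 1.68 and was named after its values were seen.

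Matrix, mesenchymal and contractile genes were lower in BTLA low cells. AXL, a receptor tyrosine kinase on chromosome 19 of GRCh38 from 41219223 to 41261766, was at 157, 167 and 156 RPM in BTLA low 1, 2 and 3 and at 376, 326 and 374 RPM in BTLA high 1, 2 and 3. The groups did not overlap, and the log2 difference was -1.16 (standard error 0.08, adjusted p = 4.92e-05). SPARC, a matricellular protein, fell by 1.42, TAGLN, an actin-binding protein that overlaps PCSK7, by 1.10, and the transcription factor SNAI2 by 1.89. Of 34 mesenchymal genes tested, 15 fell and 1 more was lower at RPM alone, with a median of -0.49. FN1, which encodes fibronectin, went the other way, at 189 ± 25.3 against 73.3 ± 18.2 RPM, and was named after its values were seen. Its log2 difference was 1.39 (standard error 0.16, adjusted p = 4.58e-04). Collagens divided. Of 23, 10 fell and 4 rose. COL1A1, the main fibrillar collagen chain, was at 177, 181 and 176 RPM in the BTLA low libraries and 395, 393 and 419 RPM in the BTLA high libraries, and COL5A1 and COL4A2 fell by 0.95 and 0.70. COL4A3 and COL4A4, basement membrane chains encoded side by side, rose by 1.38 and 0.89, the second losing its call without BTLA high 1. Of 30 actin and serum response factor-linked genes, 9 fell, 5 more were lower at RPM alone and 0 were higher at an adjusted p under 0.05. The 14 lower at RPM became 9 without BTLA low 3 and 7 without BTLA high 1. ZYX, a focal adhesion protein, was at 157 ± 2.09 against 284 ± 22.4 RPM. FLNA, which crosslinks actin, had a log2 difference of -0.50 at RPM and did not pass under cyclic loess. Of 25 YAP/TEAD targets, 7 fell and 3 were higher at RPM alone, the latter from 0 (without BTLA high 1) to 6 (without BTLA high 3) when 1 library was left out. Of 30 matrix proteases and inhibitors, 8 fell and 1 rose, MMP7 (1.30). EPHB2, a receptor for ephrins, fell by 1.01, KCNMA1, a calcium-activated potassium channel, by 2.02, PLEK2, a pleckstrin family member, by 1.88, and MARCHF4, a membrane ubiquitin ligase, by 2.71.

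**Figure D2:**
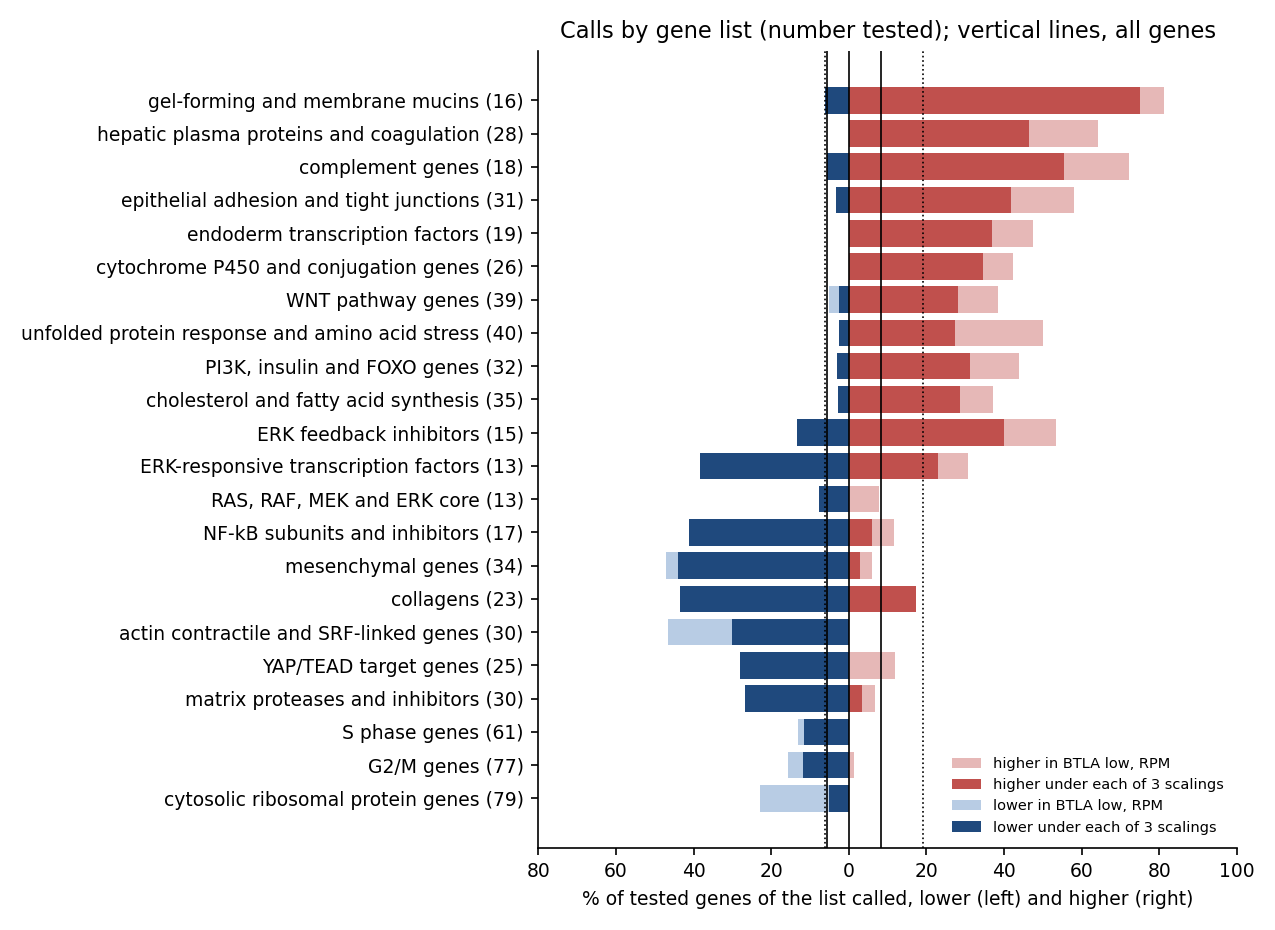
Percent of the tested genes of 22 lists called higher (right, red) or lower (left, blue) in BTLA low cells, with the number tested in brackets, pale for the call at RPM and dark for genes called under each of 3 scalings. Vertical lines give the same for all genes, dotted at RPM (19.1% and 6.25%) and solid under each scaling (8.38% and 5.56%). Mucin, plasma protein and complement genes reach furthest right, and mesenchymal genes and collagens furthest left among the dark bars.

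NF-κB subunit and inhibitor genes were lower in BTLA low cells. The noncanonical arm of this pathway is known to run from the kinase NIK, encoded by MAP3K14, to the subunits encoded by NFKB2 and RELB. NFKB2 was at 26.3, 27.0 and 30.5 RPM in BTLA low 1, 2 and 3 and at 75.6, 71.3 and 63.7 RPM in BTLA high 1, 2 and 3, a log2 difference of -1.33 (standard error 0.10, adjusted p = 6.74e-05). RELB was at 13.1, 14.3 and 17.5 RPM in the BTLA low libraries and 53.4, 44.6 and 38.2 RPM in the BTLA high libraries, and MAP3K14 at 33.0, 32.0 and 32.5 RPM in the BTLA low libraries and 86.1, 67.5 and 77.6 RPM in the BTLA high libraries. The groups of libraries stood apart for all 3. NFKBIE, an inhibitor of NF-κB, fell by 1.02, and TRAF2, an adaptor that keeps NIK low, by 0.49, the second losing its call without BTLA high 1 (adjusted p = 0.0512). Of 17 subunits and inhibitors tested, 7 fell and 1 rose, IKBKB (0.54, a call lost without BTLA low 3), with a median of -0.29. The calls of NFKBIA, TRAF1 and TRAF3 were lost without BTLA low 1, BTLA low 3 or BTLA high 1, and under further settings. In all, 4 of the 17 were lower without BTLA low 1 or without BTLA low 3, and 3 without BTLA high 1. Targets of the pathway divided. CCL2, the monocyte chemokine, was at 20.5, 17.2 and 19.7 RPM in the BTLA low libraries and 66.9, 59.1 and 61.6 RPM in the BTLA high libraries, and IL32, a cytokine, at 39.2, 27.3 and 37.2 RPM in the BTLA low libraries and 178, 183 and 115 RPM in the BTLA high libraries. BCL2A1, an inhibitor of apoptosis, fell by 2.39, and BIRC3, another, by 0.75. The neutrophil chemokine genes CXCL1 and CXCL5 rose by 1.53 and 1.43, and PTGS2, the inducible cyclooxygenase, by 2.44. Of 19 targets tested, 6 rose and 4 fell. TNFRSF12A, a receptor that signals to NIK, was at 226 ± 1.40 against 402 ± 33.5 RPM.

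The promoter of IL32 was chosen because the gene fell and the window holds NF-κB letters, so the match is a description only. It is the window of 250 bases before the first of 2 RefSeq starts (GRCh38.p14, chr16:3065153-3065402, plus strand), with capitals for the NF-κB consensus, searched on both strands. Its 2 matches overlap, and the window of the second start holds none.
IL32: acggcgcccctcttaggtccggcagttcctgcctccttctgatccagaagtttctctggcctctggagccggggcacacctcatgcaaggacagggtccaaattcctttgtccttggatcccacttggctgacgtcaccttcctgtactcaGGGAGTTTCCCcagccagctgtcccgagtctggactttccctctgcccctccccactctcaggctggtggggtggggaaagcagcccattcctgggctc
For NFKB2, the windows of 3 starts hold 0, 3 and 2 matches, with overlapping matches at the second start. The consensus was in 5.21% of all 35116 windows, and by gene in 10.7% of 681 genes that fell, 9.90% of 1000 that rose and 8.13% of 11200 tested. The AP-1 motif TGANTCA was in 8.66%, 7.60% and 6.36% of the same genes, and in 6.57% of all windows. No test was made of these shares.

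**Figure D3:**
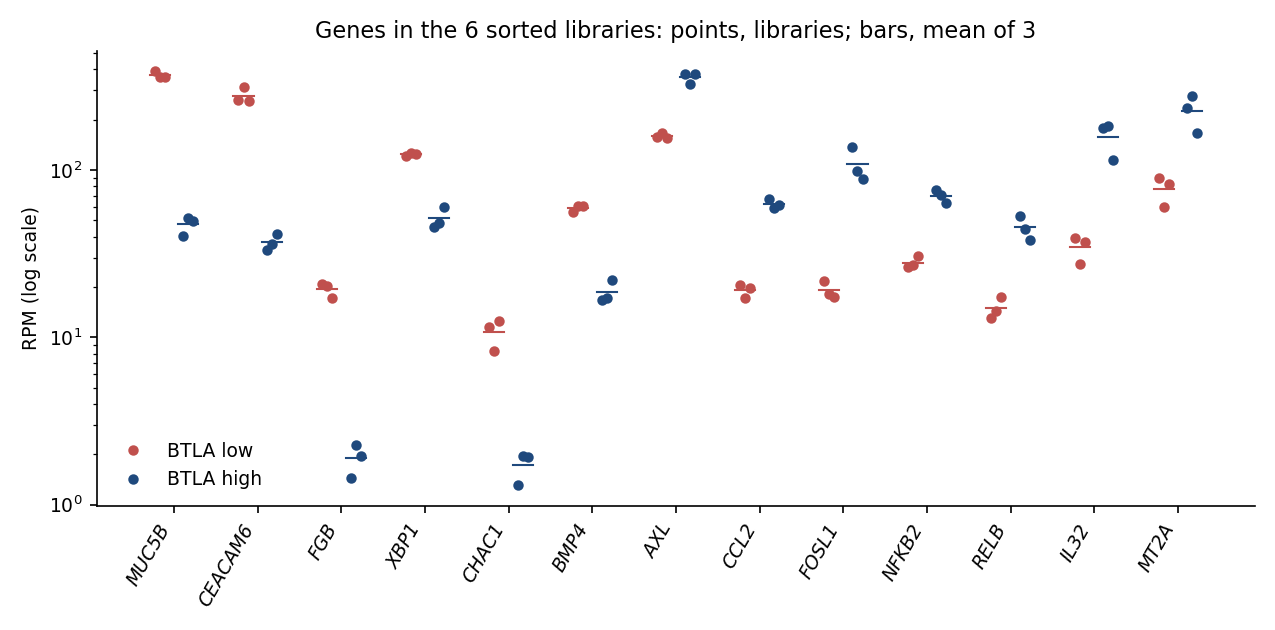
RPM of 13 genes (y axis, log scale) in each library, red for BTLA low and blue for BTLA high, with a bar at the mean of 3 libraries. The 2 groups do not overlap for any gene shown, and IL32 spreads from 115 to 183 RPM among the BTLA high libraries.

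Because BTLA is studied here for its relation to ERK, the genes of this cascade were taken by role. MAPK3, which encodes ERK1, was at 49.7, 47.8 and 47.6 RPM in the BTLA low libraries and 37.8, 41.0 and 39.9 RPM in the BTLA high libraries, with a log2 difference of 0.29 (standard error 0.08, adjusted p = 0.0346) that did not pass under either of the other scalings or when any library but BTLA high 3 was left out. Of 13 RAS, RAF, MEK and ERK genes 1 fell, HRAS (-0.57), a call lost without BTLA low 3, BTLA high 1 or BTLA high 2, and 0 rose, while MAPK3 was higher at RPM alone. Genes listed as feedback inhibitors, most of which ERK activity is known to induce, were higher more often than lower. Of 15 tested, 6 rose, 2 more were higher at RPM alone and 2 fell, with a median of 0.67. DUSP4, a nuclear phosphatase of ERK, was at 147, 156 and 145 RPM in the BTLA low libraries and 89.2, 91.5 and 101 RPM in the BTLA high libraries. DUSP5 rose by 0.74 and DUSP10, which is not specific to ERK, by 1.08, and DUSP7, a cytoplasmic ERK phosphatase, fell by 0.93. DUSP6 passed at RPM alone (0.64), and only with BTLA low 2, BTLA low 3, BTLA high 1 and BTLA high 2 all kept. SPRY1, SPRY2 and SPRY4, named after their values were seen, rose by 1.37, 0.93 and 0.87. Transcription factors that follow ERK divided, with 3 of 13 up and 5 down. FOSL1, an AP-1 subunit on chromosome 11 of GRCh38 from 65892049 to 65900573, was at 21.7, 18.2 and 17.4 RPM in BTLA low 1, 2 and 3 and at 137, 99.3 and 88.5 RPM in BTLA high 1, 2 and 3, a log2 difference of -2.48 (standard error 0.16, adjusted p = 3.49e-05). ETV4 and ETV5, ETS factors that overlap DHX8 and DGKG, rose by 0.78 and 0.88, and ETS2 fell by 0.94. Of 29 immediate early genes, 6 rose and 6 fell, and without BTLA low 3 or BTLA high 1 the counts at RPM were 5 and 3. The nuclear receptor gene NR4A1 was at 14.6 ± 0.135 against 2.83 ± 0.799 RPM, and JUN at 69.2 ± 8.61 against 138 ± 16.7 RPM. Upstream, ERBB3, a receptor for neuregulins, rose by 1.62, ERBB2, which overlaps MIEN1, by 0.52, and the neuregulin gene NRG1 fell by 0.70. Of 30 RAS regulators and adaptors, 4 rose and 3 fell, and 1 was lower at RPM without BTLA low 3, BTLA high 1 or BTLA high 2, while 12 were higher without BTLA high 3. KSR1, a scaffold of the cascade, was at 36.1 ± 4.88 against 17.2 ± 4.47 RPM, and ARRB1, a beta-arrestin, at 53.9 ± 5.66 against 17.7 ± 3.30 RPM.

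Some cell cycle genes were lower in BTLA low cells. Falls were also more frequent among all genes at high levels, 185 of 1691 in bin 9 and 228 of 1691 in bin 10 by level. Whether the cell cycle lists differ from other genes of their level was not tested. CDC20, an activator of the anaphase-promoting complex, was at 211, 188 and 204 RPM in the BTLA low libraries and 361, 339 and 317 RPM in the BTLA high libraries, a log2 difference of -0.75 (standard error 0.08, adjusted p = 3.11e-04). PLK1 and MYBL2 fell by 0.41 and 0.41, and BIRC5, which encodes survivin, by 0.36, a call lost without BTLA high 1. Of 77 G2/M genes tested, 9 fell, 3 more were lower at RPM alone and 1 was higher at RPM alone, with a median of -0.05. Of 61 S phase genes, 7 fell, 1 more was lower at RPM alone and 0 were higher at an adjusted p under 0.05, with a median of -0.09. TIPIN, a replication fork protein, fell by 0.58, and CDT1, which licenses origins, by 0.42, though not without BTLA low 3 or BTLA high 1. The 12 G2/M genes lower at RPM became 6 without BTLA low 3 and 3 without BTLA high 1, and the 8 of S phase became 2 and 1. CCND1, a D-type cyclin that drives G1, was at 282, 297 and 273 RPM in the BTLA low libraries and 386, 358 and 394 RPM in the BTLA high libraries, and CDKN1B, the inhibitor p27, at 31.0, 42.9 and 36.9 RPM in the BTLA low libraries and 21.3, 19.1 and 23.8 RPM in the BTLA high libraries. The groups did not overlap for either, at log2 differences of -0.42 and 0.78. Of 20 G1 cyclins, CDKs and inhibitors tested, 1 rose and 1 fell, with a median of 0.0005. At RPM 3 of them were higher, 1 was lower and 16 were not called. Of 18 BCL2 family genes, 2 rose and 4 fell, and without BTLA high 1 the 4 lower at RPM became 2. The pro-apoptotic BMF was at 4.12, 4.17 and 5.36 RPM in the BTLA low libraries and 0.652, 1.46 and 0.695 RPM in the BTLA high libraries and BBC3 rose by 0.75, while BCL2A1, BIK and BAX were among those that fell, BAX by 0.49, a call lost without BTLA high 1.

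Genes of amino acid and endoplasmic reticulum stress, of FOXO and PI3K signaling and of lipid synthesis were higher. XBP1, the transcription factor of the unfolded protein response, was at 121, 127 and 124 RPM in BTLA low 1, 2 and 3 and at 45.4, 48.5 and 60.2 RPM in BTLA high 1, 2 and 3, a log2 difference of 1.28 (standard error 0.11, adjusted p = 1.10e-04). CHAC1, which degrades glutathione and is induced by ATF4, was at 11.5, 8.29 and 12.6 RPM in the BTLA low libraries and 1.30, 1.95 and 1.93 RPM in the BTLA high libraries. PHGDH, the first enzyme of serine synthesis, was at 137 ± 21.2 against 66.1 ± 1.69 RPM. Of 40 genes of this list tested, 11 rose, 9 more were higher at RPM alone and 1 fell, ATF5 (-0.70), which overlaps NUP62, with a median of 0.37. Without BTLA low 3 or BTLA high 1, 12 in place of 20 were higher at RPM. SESN2, a stress-induced inhibitor of mTORC1, had 1.65, which did not pass on the deposited RPKM as they stand (adjusted p = 0.267). Of 32 PI3K, insulin and FOXO genes, 10 rose, 4 more were higher at RPM alone and 1 fell, the PI3K catalytic subunit gene PIK3CD (-0.46), a call lost without BTLA low 1, BTLA low 3, BTLA high 1 or BTLA high 2. CCNG2, a cyclin that FOXO factors induce, was at 7.96, 9.86 and 8.99 RPM in the BTLA low libraries and 2.21, 2.82 and 2.34 RPM in the BTLA high libraries, DDIT4, an mTORC1 inhibitor, at 30.9 ± 0.971 against 10.7 ± 3.04 RPM, and the pseudokinase gene TRIB3 at 109 ± 7.12 against 62.0 ± 6.68 RPM. PIK3R1, a regulatory subunit of PI3K, rose by 1.05. Of 35 genes of cholesterol and fatty acid synthesis, 10 rose, 3 more were higher at RPM alone and 1 fell, the fatty acid binding protein FABP5 (-0.71). SREBF1, the transcription factor of lipid synthesis, was at 616 ± 3.74 against 359 ± 51.6 RPM, and FADS2, which overlaps FADS1, and SCD, both desaturases, rose by 1.05 and 1.03. Of 26 cytochrome P450 and conjugation genes, 9 rose and 0 fell at an adjusted p under 0.05, CYP3A5, which oxidizes many drugs, by 1.31. Of 5 metallothionein and zinc genes 3 fell, and 1 did without BTLA low 3 or BTLA high 1. MT2A was at 89.5, 59.7 and 82.7 RPM in the BTLA low libraries and 236, 277 and 166 RPM in the BTLA high libraries, a log2 difference of -1.54 (standard error 0.20, adjusted p = 7.28e-04).

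Among secreted ligands, BMP4 and BMP6, bone morphogenetic proteins, rose. BMP4 was at 56.0, 61.2 and 61.3 RPM in the BTLA low libraries and 16.8, 17.3 and 21.9 RPM in the BTLA high libraries, and BMP6, which overlaps TXNDC5, at 16.3 ± 2.87 against 4.89 ± 0.982 RPM. GDF15, a stress-induced hormone of the TGF-β family, was at 95.4 ± 11.9 against 40.1 ± 4.63 RPM. SEMA3B and SEMA3A, secreted semaphorins, rose by 1.72 and 1.59, and PLXNA3, a receptor for this class that overlaps LAGE3, by 0.80. Of 48 cytokine, TGF-β family and receptor genes tested, 11 rose, 9 more were higher at RPM alone and 5 fell, and without BTLA high 1 the counts at RPM were 13 and 3. Interferon-stimulated genes were higher in 5 of 42 under each scaling, against 8.38% of all genes. They were higher in 8 more at RPM alone, and lower in 0 at an adjusted p under 0.05. The 13 higher at RPM became 7 without BTLA low 3 and 6 without BTLA high 1. OAS1, a sensor of double-stranded RNA, was at 34.2, 33.1 and 32.2 RPM in the BTLA low libraries and 13.4, 13.6 and 13.2 RPM in the BTLA high libraries, and STAT2 at 26.1 ± 3.36 against 10.7 ± 1.89 RPM. Of 20 HLA class I and antigen processing genes 1 was lower at RPM alone and 1 fell, PSMB9 (-0.68), which overlaps TAP1 and lost its call without BTLA low 2, BTLA high 1 or BTLA high 2. CD274, which encodes PD-L1 and overlaps AL162253.2, was under 1 RPM in each library and did not pass (log2 difference -0.31, 95% interval -1.20 to 0.58).

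Genes that make up many of the reads followed the scaling. Ribosomal protein genes took 7.73% ± 0.993 of the reads in BTLA low and 9.59% ± 1.28 in BTLA high (SD, n = 3), with p = 0.2 in a two-sided exact permutation test. At RPM 18 of 79 were lower, but 4 fell under each scaling, and leaving out 1 library gave from 0 (without BTLA high 2) to 69 (without BTLA high 3). The mitochondrially encoded genes took 6.92% ± 0.272 and 5.44% ± 0.302 (SD, n = 3), with p = 0.1, the lowest that the same exact permutation test can give. All 3 BTLA low libraries were above all 3 BTLA high libraries, yet of 13 genes 7 were higher at RPM, 1 without BTLA low 3 or BTLA high 1, and 0 under each scaling. GAPDH was at 4232, 4306 and 4199 RPM in the BTLA low libraries and 4765, 4404 and 4709 RPM in the BTLA high libraries and did not pass at any scaling, with log2 differences of -0.12 at RPM, -0.38 at the same median and 0.15 with cyclic loess. The part of these shares in the results above was not tested beyond the other scalings.

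The sort and the knockdown share no library, so genes that moved in the sort alone can be tested. Of 16160 genes tested in both, 129 (0.798%) were higher and 114 (0.705%) lower in shBTLA than in shControl. Of these, 107 were also higher in BTLA low, which is 82.9% of the knockdown calls and 3.46% of the sort calls, and 78 were also lower, 68.4% and 7.41%. Mucin and surface genes were among those called in both. In the knockdown the log2 differences (shBTLA minus shControl) were 4.09 for MUC5B, 2.92 for CEACAM6 and 4.84 for KRT4, and -1.69 for COL1A1. Genes counted as moved in the sort alone passed there at RPM and did not pass in the knockdown. They also differed between the experiments in the test of the difference of the effects. These were 501 higher (3.10%) and 139 lower (0.86%), of which 360 and 136 were also called under each scaling of the sort. These counts rest on every library but BTLA high 3, as they were 131 and 37 without BTLA high 1, 151 and 57 without BTLA low 3, 188 and 67 without BTLA high 2, 192 and 73 without BTLA low 2 and 224 and 74 without BTLA low 1.

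**Figure D4:**
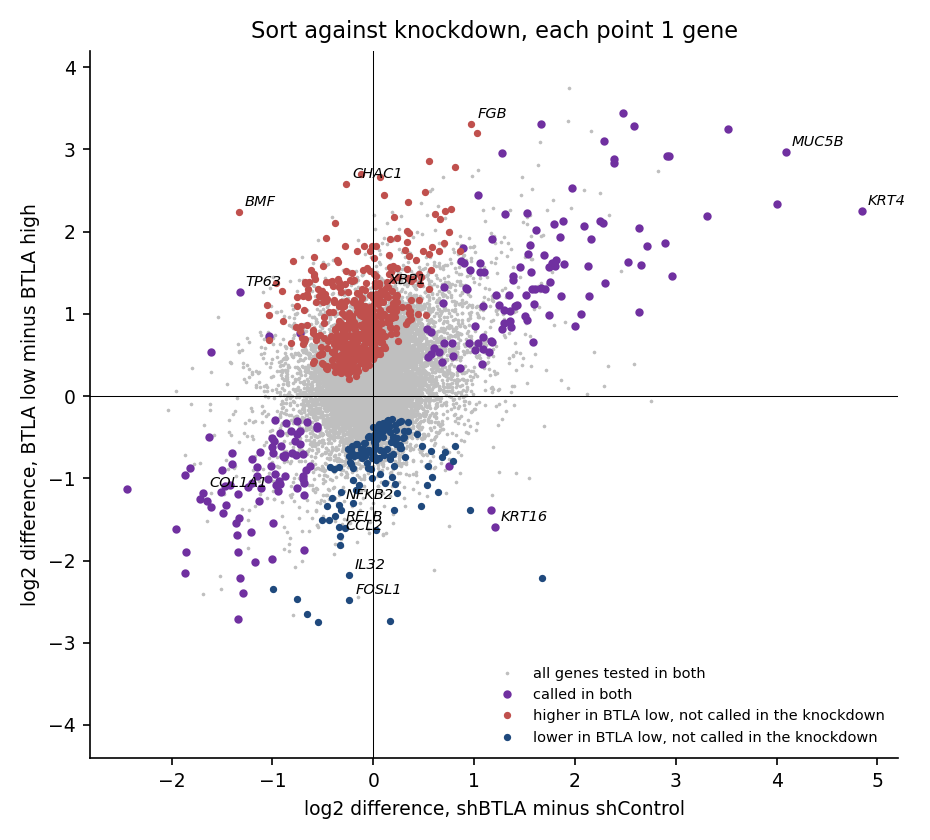
Log2 difference of each of 16160 genes in the sort (BTLA low minus BTLA high, y axis) against the knockdown (shBTLA minus shControl, x axis), in gray, with genes called in both in purple and genes counted as moved in the sort alone in red (501 higher) and blue (139 lower). XBP1 and CHAC1 above and FOSL1, IL32 and NFKB2 below lie within 0.5 of 0 on the x axis, and MUC5B and KRT4 lie beyond 4.

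Of the genes lower in the sort alone, the long noncoding RNA LINC00707, FOSL1 and CCL2 had the smallest p of the difference between the experiments. For FOSL1 the knockdown gave -0.24 (adjusted p = 0.378), and the difference of the effects was -2.24 (standard error 0.20, adjusted p = 3.60e-04). LINC00707 was at 7.59, 7.21 and 7.64 RPM in the BTLA low libraries and 20.0, 18.6 and 20.3 RPM in the BTLA high libraries, against a knockdown effect of 0.21, a difference of -1.59 (adjusted p = 3.60e-04). NFKB2, with -0.34 in the knockdown, differed by -0.99 (adjusted p = 0.00511), and CCL2 by -1.37. With RELB and NFKBIE, 3 of the 17 NF-κB subunits and inhibitors were lower in the sort alone. So were BIRC3, CCL2 and LTB of the 18 targets tested in both, against 0.86% of all genes. The 17 subunits and inhibitors had a median of -0.29 in the sort and of -0.28 in the knockdown, where 0 of them passed. Over all genes the medians were 0.18 and -0.02. LTB lost its call in the sort without any 1 of 4 libraries and was near the floor, at 0.111 ± 0.143 against 0.838 ± 0.457 RPM. TRIML2 was at 54.9 ± 4.15 against 125 ± 15.4 RPM and differed by -1.41, SLC25A22, a mitochondrial glutamate carrier, by -0.91, and KIRREL3, an adhesion molecule that overlaps ST3GAL4, by -0.82. CA8 and LY6K differed by -2.34 and -2.90, LY6K, which overlaps LNCOC1, at 1.44 RPM in BTLA high and 0.131 in BTLA low. CD3EAP, which overlaps ERCC1 with more reads, fell by 1.31.

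Genes of the stress, FOXO and lipid lists were among those higher in the sort alone, by the call at RPM. Of 40 genes of amino acid and endoplasmic reticulum stress 7 were, and of 31 PI3K, insulin and FOXO genes tested in both 5. TRIB3 and DDIT4 were in both lists. Of 35 lipid synthesis genes 4 were, against 3.10% of all genes. CHAC1 had -0.27 in the knockdown (adjusted p = 0.755), a difference of 2.84 (standard error 0.32, adjusted p = 0.00121). XBP1 had 0.09 there and differed by 1.19, and KLHL24, a ubiquitin ligase adaptor, had -0.59 and differed by 2.07. BMF differed by 3.58 (adjusted p = 0.00121), with a knockdown effect of -1.34 that did not pass (adjusted p = 0.0662). PAQR6, a membrane receptor of the progestin and adipoQ family, was at 33.7, 33.1 and 33.7 RPM in the BTLA low libraries and 13.5, 12.8 and 12.2 RPM in the BTLA high libraries in the sort and differed by 1.45. HGD, an enzyme of tyrosine breakdown, was at 74.1 ± 1.04 against 37.7 ± 3.53 RPM, DYRK1B, a kinase of quiescent cells, at 49.2 ± 2.56 against 21.5 ± 1.77 RPM, and ADAMTS10, a matrix metalloprotease, at 130.4 ± 3.25 against 44.5 ± 6.86 RPM. The groups did not overlap for any of these 4. SMIM14, GASK1B and PLXNA3 differed by 1.72, 2.28 and 1.39, and MRC2, a collagen uptake receptor, by 0.94, the last not passing in the sort with libraries scaled to the same median. FGB also counted here, since its knockdown effect of 0.97 did not pass (adjusted p = 0.190) and differed by 2.34, as did BMP4 (1.67), PTPN6 (0.54) and STAT2 (1.37).

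Of 2444 long noncoding RNAs tested, 350 were higher and 55 lower at RPM, or 133 and 55 under each scaling. These shares were below those of all genes, 19.1% and 6.25% at RPM and 8.38% and 5.56% under each scaling. The median of the long noncoding RNAs was 0.33 at RPM, against 0.16 for protein-coding genes, and lay within the shift of genes at low levels. NEAT1, the RNA scaffold of paraspeckles, was at 457, 493 and 493 RPM in the BTLA low libraries and 193, 191 and 239 RPM in the BTLA high libraries, a log2 difference of 1.22 (standard error 0.10, adjusted p = 7.62e-05). LINC02593 was at 31.1 ± 3.88 against 13.9 ± 0.550 RPM, and LINC00261, beside FOXA2, rose by 1.34. AC138150.2, which overlaps HEXIM2, rose by 1.42. SNHG15 and MEG3 fell by 0.66 and 0.59. NKILA, an RNA that binds the NF-κB complex and overlaps PMEPA1 with more reads, fell by 0.85, and AL109809.5 by 1.34. The sources used here do not give the strand settings of the counting, so reads of overlapping and antisense genes cannot be told apart.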

How the data were processed

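RNA of sorted A549 cells was extracted with Trizol and sequenced on Illumina libraries. Per the labels the authors used Trim Galore 0.6.6, STAR, featureCounts and edgeR with hg38, and deposited RPKM per gene for each library. The sources used here give no strand or multimapping settings. The deposited RPKM carry the length of another gene, by place in the list, so whole reads were recovered from them (100% of values above 0 within 0.02 reads). For 58797 of 60617 genes the length at their place was known. It was sought for 1056 more and not found for 134, whose reads were set to 0. The authors' comparison tables, with log2 fold changes, mean log2 CPM, likelihood ratios and p-values, were not used, and 0 per-sample columns were unmapped.

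Genes that reached 10 reads in 3 or more of 6 libraries were tested on log2(RPM + 0.1) with limma 3.58.1 (R 4.3.3, trend, Benjamini-Hochberg, adjusted p under 0.05) on the 6 sorted libraries alone. The difference from the knockdown came from 1 limma model of 12 libraries. Python 3.11.15, numpy 2.4.6 and pandas 2.3.3 were used for the rest. The limma steps were tested on simulated data. Intervals of log2 differences are at 95%.

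The members, the 56 lists and the rules were chosen with earlier results of these data known. Named genes were the 15 protein-coding genes of smallest p in each direction with a mean of at least 1 RPM, up to 4 called genes per list, the 10 of smallest p in each direction among those moved in the sort alone and the 5 long noncoding RNAs of smallest p in each direction, with BTLA, TNFRSF14, MAPK3, CD274 and GAPDH. A few genes that these rules name are not reported here. CLDN4, CD59, WNT10B, ATF5, FABP5, BAX, PIK3CD, IKBKB, EPCAM, SCD, BIRC3, CXCL5, COL4A4, F7, LTB, the gene CREB3L1 and the genes said to be so were named after their values were seen. So were DUSP6, NFKBIA, TRAF1 and TRAF3. Alternatives were other scalings, pseudocounts, filters, fits and left-out libraries, and cyclic loess was added after seeing the data. The main fit took no pairing from the replicate numbers, as the sources state none. No 2 libraries were duplicates. A gene at 0 has an upper limit of 3 reads.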

Additional observations from a re-analysis of the deposited data

Results flagged for a closer look

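A group of 7 genes passed in both experiments in opposite directions, and the difference of the effects, tested in 1 limma model of all 12 libraries, passed for each. TP63, a transcription factor of basal epithelia, was higher in BTLA low cells (1.26) and lower with shBTLA (-1.33), a difference of 2.59 (adjusted p = 0.00121). FBXO32, a muscle-known ubiquitin ligase that FOXO factors induce, had 0.53 and -1.61, a difference of 2.14, and in the sort did not pass under each scaling. Its call in the sort was also lost without BTLA low 1, BTLA low 3, BTLA high 1 or BTLA high 2. SERPINF1, a secreted inhibitor of vessel growth, had 0.74 and -1.04, a difference of 1.77, and DCDC1 had 0.77 and -0.72, a difference of 1.50.

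The other 3 were lower in BTLA low cells and higher with shBTLA. KRT16, a keratin of activated epidermis, had -1.60 and 1.20, a difference of -2.80 (adjusted p = 0.000458). CALB2, a calcium-binding protein, had -1.38 and 1.17, a difference of -2.55, and STMN3, a microtubule destabilizer, had -0.85 and 0.76, a difference of -1.61. Within each experiment these genes were measured on 3 libraries against 3.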

How the results depend on the processing

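The counts of calls rested on the scaling and on single libraries. Of the 4295 genes called, 2637 were called the same way after scaling to the same median, 2852 with cyclic loess (chosen after seeing the data), 4243 with a pseudocount of 1, 4231 with voom, 3140 on the deposited RPKM as they stand and 3332 with no filter. The same median gave 1580 higher and 3090 lower, 626 and 441 at the study's thresholds and 226 and 375 in the sort alone. Cyclic loess gave 1961 and 1778, 590 and 470, and 315 and 268. At the study's thresholds the deposited RPKM gave 736 and 143 and a pseudocount of 1 gave 439 and 87, and with no filter 302 and 89 genes moved in the sort alone. Leaving out 1 library gave 1568 to 4599 genes higher and 416 to 1392 lower, and 131 to 613 and 37 to 150 in the sort alone. At the study's thresholds these ranges were 1092 to 1451 and 202 to 255. The count of higher genes was lowest without BTLA high 1 and highest without BTLA high 3. Deviations of same-numbered libraries from their group means had correlations of 0.068, -0.373 and -0.165. With 3 libraries a group, these cannot show whether such libraries were paired. A fit with the replicate block gave 1726 higher and 461 lower, or 1180 and 223 at the study's thresholds. In the sort alone it gave 255 and 74, and it called 2183 of the 4295 genes the same way. The fit of all 12 libraries was not run for the counts in the sort alone. The BTLA difference ranged from -0.0316 to 0 RPM and that of TNFRSF14 from 0.145 to 0.222 when 1 library was left out.

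Of 263 named genes that passed, 208 kept direction and call under every alternative and 55 lost the call in at least 1, while the 27 differences from the knockdown kept theirs. Among genes that did not pass, the sign turned for CD274 (-0.541 to 0.0180 when 1 library was left out, positive without BTLA low 2) and GAPDH with cyclic loess (0.15). The cause of these changes was not tested. With 3 libraries a group, exact tests could not go below 0.1, and genes near the floor of 0.0706 to 0.102 RPM, BTLA among them, could not be compared at this depth.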

Other observations

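Calls were spread over the chromosomes. The share of tested genes that rose under each of 3 scalings ran from 5.12% on chromosome 16 to 12.2% on chromosome 4, and the share that fell from 2.60% on chromosome 4 to 8.27% on chromosome 22.

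Over all genes, 8.38% rose and 5.56% fell under each scaling, and at RPM 19.1% were higher and 6.25% lower. Several of the small lists that follow lie near these shares. Hypoxia and glycolysis genes went both ways, with 6 of 40 rising and 3 falling, ANGPTL4 among these at -1.27. The 8 lower at RPM became 4 without BTLA low 3 or BTLA high 1. Potassium channel genes rose in 7 of 31 and fell in 2. Notch pathway genes rose in 3 of 25, and 0 fell at an adjusted p under 0.05, while the 6 higher at RPM became 3 without BTLA low 3 and 2 without BTLA high 1. Of 76 nuclear genes of the respiratory chain, 0 rose and 2 fell under each scaling, and 1 was higher and 3 lower at RPM, or 15 lower without BTLA high 3. Of 40 glutathione and redox genes, 5 rose and 1 fell. At RPM 11 of them were higher and 3 lower, which became 7 and 0 without BTLA low 3 and 17 and 5 without BTLA high 3, and 0 were lower without BTLA low 2, BTLA high 1 or BTLA high 2. Of 26 aldo-keto reductase and aldehyde dehydrogenase genes, 5 rose and 2 fell. Of 31 p53 target genes 4 rose and 4 fell, TP53I3 among these at -1.12, with the 4 lower at RPM becoming 2 without BTLA high 1, and of 17 heat shock genes 1 rose and 1 fell.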
